A study of Mus musculus with 137 samples.

Results

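Macrophages in which the Beclin1 gene was targeted for deletion were followed at rest and through 6 h and 24 h of exposure to lipopolysaccharide (LPS) and interferon-gamma. They are the knockout arm of the study's first knockout cohort, called KO1 in the labels, and were chosen by culture number: S36, S37 and S38, each with 3 repeat libraries at each of the 3 times. These are 27 of the 54 libraries of that cohort and 27 of the 137 libraries in the series. Repeats were summed within a culture and time, which leaves 9 units, 3 per time, and the cultures were compared with themselves across time. The knockout genotype is Beclin1flox/flox-LysM-Cre+, and the control cultures S33, S34 and S35, Beclin1flox/flox-LysM-Cre-, carry the same floxed alleles without the recombinase. Both came from marrow of mice aged 7 weeks, grown for 7 days in M-CSF at 20 ng/ml, re-plated, and given LPS at 100 ng/ml with IFN-gamma at 100 ng/ml, except that 0 h units had neither. LysM-Cre is expressed from the Lyz2 locus, so deletion takes place in myeloid cells as they mature and need not be complete in a culture. The labels do not say whether a culture number is a mouse or a dish, nor in what the repeats differ. The p-values therefore measure only how changes over time vary between these cultures, with the control cultures adding to that estimate.

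LPS is sensed at the cell surface by Toll-like receptor 4 with CD14 and signals through MyD88 and TRIF to NF-kB, AP-1 and IRF3, while interferon-gamma acts through its receptor and the kinases JAK1 and JAK2. The first pathway drives cytokines, chemokines and their own inhibitors, the second drives guanylate-binding proteins, antigen presentation and, together with NF-kB, the inducible nitric oxide synthase. Beclin1 is a subunit of the class III phosphatidylinositol 3-kinase complexes that act in autophagy and endosomal traffic, and cells of this kind are widely used to study both.

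The 9 knockout units held 8402821 to 13050478 counts in genes, and their libraries 1898574 to 6579185. All 27 libraries were closest to other libraries of their own time, among them 1 library of S38 at 6 h whose labels conflict between fields. The 10 macrophage markers, such as Csf1r, Cd68 and Emr1 (F4/80), were detected in every unit, with a summed level of 14439 to 19814 CPM (TMM-scaled counts relative to the library total) at rest. Most of that sum was 1 gene, Lyz2, at 11464, 10826 and 10785 CPM in S36, S37 and S38. B cell, T and NK cell and mast cell lists summed to at most 7.0, 48.3 and 2.1 CPM in any unit. Only 3 of 10, 5 of 13 and 0 of 8 of their genes passed the filter. In the monocyte, dendritic cell, and stromal and endothelial lists 8 of 8, 8 of 10 and 11 of 13 did. In the erythroid and megakaryocyte list, which holds Pf4, given below, 4 of 10 passed. Whether such cells were present was not tested. The 50 most abundant genes took 38.7% to 52% of the counts. Levels below are CPM scaled by the trimmed mean of M-values (TMM), in the order S36, S37, S38. TMM factors were 1.51 to 2.07 at rest and 0.57 to 0.92 after stimulation, so that scaling shifts every change against rest and can turn the sign of small ones. In bulk RNA, fewer cells of a type and less RNA per cell cannot be told apart.

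Promoters of 5 genes that rose steeply are printed because motifs tied to these pathways can be read in them. They were picked for that from 12 promoters of steep risers, of which those of Ptgs2, Il12b and Clic5 held none of the motifs searched. They are RefSeq sequences of build GRCm38.p6, from 250 bases before to 50 bases after the start, written 5′ to 3′ on the strand of the gene: Gbp5 at chr3:142496684-142496983 on the plus strand, Cxcl9 at chr5:92328030-92328329 on the minus strand, Serpina3g at chr12:104235897-104236196 on the plus strand, Socs1 at chr16:10785487-10785786 on the minus strand and Il6 at chr5:30012864-30013163 on the plus strand. Capitals mark matches on either strand to TTTCNNTTT (core of the interferon-stimulated response element), TTCNNNGAA (GAS, the gamma-activated sequence), GGGNNTTTC or GGGNNTTCC (NF-kB) and TGANTCA (AP-1), and matches can overlap.
Gbp5: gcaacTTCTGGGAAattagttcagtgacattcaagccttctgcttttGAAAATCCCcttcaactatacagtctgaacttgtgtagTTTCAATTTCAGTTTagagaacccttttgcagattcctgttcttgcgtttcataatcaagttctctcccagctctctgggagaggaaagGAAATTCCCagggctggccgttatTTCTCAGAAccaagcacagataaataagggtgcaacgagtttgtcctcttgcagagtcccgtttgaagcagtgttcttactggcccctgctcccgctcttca
Cxcl9: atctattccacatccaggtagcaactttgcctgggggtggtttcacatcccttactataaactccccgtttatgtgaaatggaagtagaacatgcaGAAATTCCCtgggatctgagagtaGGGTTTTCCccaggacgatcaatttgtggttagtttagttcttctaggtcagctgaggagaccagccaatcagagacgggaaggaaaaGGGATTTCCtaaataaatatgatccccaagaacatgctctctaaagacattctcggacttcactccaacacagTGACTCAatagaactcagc
Serpina3g: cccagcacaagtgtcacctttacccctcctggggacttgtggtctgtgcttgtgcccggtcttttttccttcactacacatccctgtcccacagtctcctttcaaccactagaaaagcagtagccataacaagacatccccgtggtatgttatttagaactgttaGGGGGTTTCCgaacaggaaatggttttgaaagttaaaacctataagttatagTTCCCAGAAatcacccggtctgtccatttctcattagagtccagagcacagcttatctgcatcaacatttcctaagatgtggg
Socs1: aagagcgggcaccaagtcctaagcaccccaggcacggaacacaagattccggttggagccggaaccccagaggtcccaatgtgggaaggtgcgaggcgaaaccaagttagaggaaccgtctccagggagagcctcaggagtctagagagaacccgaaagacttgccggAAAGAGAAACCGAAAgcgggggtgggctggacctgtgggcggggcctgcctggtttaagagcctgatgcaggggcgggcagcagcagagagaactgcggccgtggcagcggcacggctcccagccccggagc
Il6: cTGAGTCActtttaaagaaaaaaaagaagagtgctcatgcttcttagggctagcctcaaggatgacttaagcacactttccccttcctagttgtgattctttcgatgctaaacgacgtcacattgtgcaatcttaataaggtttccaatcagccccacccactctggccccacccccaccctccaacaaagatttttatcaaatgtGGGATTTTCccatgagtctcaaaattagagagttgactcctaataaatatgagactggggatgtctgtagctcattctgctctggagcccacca

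Gbp5 held 2 interferon-stimulated response element cores, which overlap, 2 GAS motifs and 2 NF-kB motifs. Cxcl9 held 3 NF-kB motifs and 1 AP-1 motif, Serpina3g 1 GAS motif and 2 overlapping NF-kB motifs, Socs1 2 overlapping response element cores and Il6 1 NF-kB and 1 AP-1 motif. Of the 13693 genes tested, 9053 matched the RefSeq table, with 11587 promoters. The response element core stood in 8.62% of these, in 10.9% of promoters of genes that rose at 6 h and in 19.3% of the 269 promoters of genes that rose at least 16-fold at 6 h. At 24 h the shares were 11.1% and, in the 134 promoters of genes that rose at least 16-fold, 26.9%. The 269 promoters belong to 216 of the 334 genes that rose so far at 6 h, and the 134 to 111 of 181 at 24 h. Genes with several promoters count more than once. NF-kB motifs stood in 11% of all promoters tested, 18.6% of the first 16-fold group and 19.4% of the second, and AP-1 motifs in 5.64%, 14.5% and 17.2%. GAS motifs stood in 7.09%, 12.3% and 15.7%. Genes that fell held the response element core in 7.58% of promoters at 6 h and 8.64% at 24 h. Their shares for NF-kB, AP-1 and GAS were 9.91%, 5.03% and 7.06% at 6 h and 10.7%, 5.95% and 7.13% at 24 h. Over all 32851 promoters of the table the shares were 10.6% for the response element core, 8.30% for GAS, 9.53% for NF-kB and 7.81% for AP-1.

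By 6 h 7792 of the 13693 tested genes stood apart from rest, and at 24 h 5487 did. Here a gene rose or fell when its adjusted p in edgeR's quasi-likelihood test was under 0.05 over all genes tested, with the culture as a block. At 6 h 3512 genes rose (25.6% of those tested) and 4280 fell (31.3%), and 334 rose and 120 fell at least 16-fold. At 24 h 2886 rose (21.1%) and 2601 fell (19%), and 181 rose and 101 fell at least 16-fold. Between 6 h and 24 h 3810 rose (27.8%) and 3087 fell (22.5%). Every culture moved in the direction of the call for 7652 of the 7792 calls at 6 h and 5399 of the 5487 at 24 h. Both times are set against the same resting units, so their values are given side by side. Without S37, 6 h gave 3084 genes higher and 3794 lower, and 24 h gave 2601 and 2302.

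Scaling carries much of that balance. With total counts in place of TMM the median log2 fold change over all genes moved from -0.09 to -1.35 at 6 h and from -0.06 to -1.12 at 24 h, and from 0.01 to 0.22 between 6 h and 24 h. Genes higher were then 11.9% of the calls at 6 h, against 45.1% with TMM, 9.68% against 52.6% at 24 h, and 66.2% against 55.2% between 6 h and 24 h. With the size factors of DESeq2 the medians were -0.03, -0.09 and -0.07. Directions below are relative to the TMM scale, and a list whose median changes sign, or whose share of risers among its calls moves by over 10 points, under another scaling carries that value beside its count. List counts are to be read against the shares over all genes, 25.6% higher and 31.3% lower at 6 h and 21.1% and 19% at 24 h, since a list near them does not stand apart.

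Response shapes were read from the 3 contrasts. An early rise that had turned down by 24 h was the most common rise, with 2006 genes (14.6% of those tested). An early fall that had turned up by 24 h was more common still, with 2578 genes (18.8%). A further 860 genes rose by 6 h and held with no call between the treated times, and 1037 fell and held. Late movers, with no call at 6 h, numbered 656 higher and 497 lower at 24 h, and 266 genes rose at both steps while 158 fell at both. Of the 2006 early risers, 594 were still called higher than rest at 24 h and 150 were called lower.

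**Figure D1:**
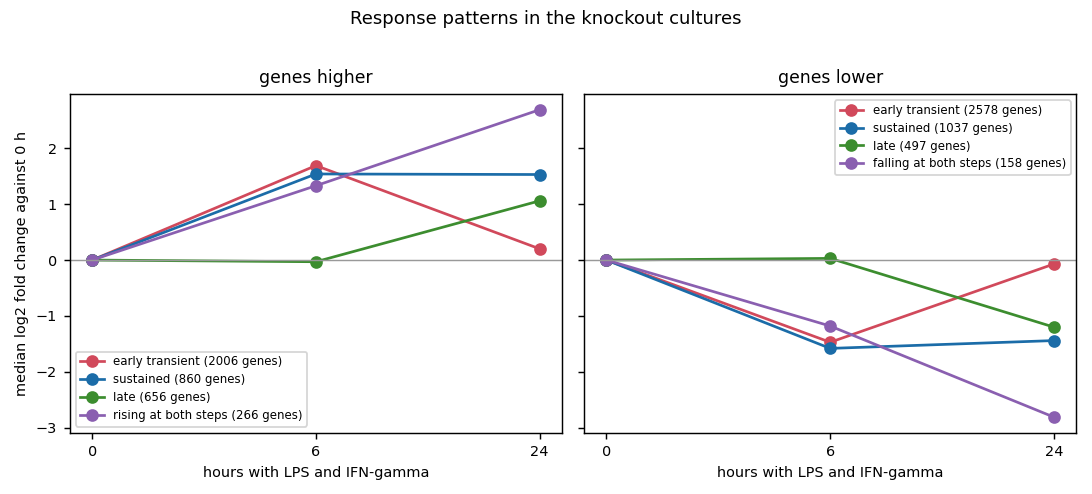
Median log2 fold change against 0 h (vertical axis) at 0, 6 and 24 h (horizontal axis, not to scale in time) over the genes of each response pattern in the knockout cultures, with the genes that rose on the left and those that fell on the right. Groups were defined by these same contrasts; the early transient risers go from 1.69 at 6 h to 0.20 at 24 h and the early transient fallers from -1.47 to -0.07.

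Becn1, the gene targeted for deletion, stood at 9.95, 14.3 and 9.40 at 0 h, 13.2, 9.18 and 8.88 at 6 h and 12.9, 13.6 and 10.4 at 24 h CPM in the knockout units. The treated units overlapped the resting ones at both times, and the log2 fold change was -0.10 ± 0.20 at 6 h and 0.13 ± 0.19 at 24 h, neither passing the test, with a sign at 24 h that turned negative with total counts. Control units lay between 25.6 and 36.9 CPM. Reads in the knockout units can come from cells that kept the gene or from transcripts of the deleted allele, which a count per gene does not separate. Lyz2, lysozyme M, the gene that drives the Cre, stood at 11464, 10826 and 10785 at 0 h, 10158, 10499.6 and 7369 at 6 h and 2936, 5745 and 4453 at 24 h CPM. All 24 h units lay well below rest, and the 6 h units lay only 1.03-fold under the lowest resting one. The log2 fold change was -0.25 ± 0.35 at 6 h, which did not pass the test, and -1.36 ± 0.36 at 24 h (edgeR adjusted p = 0.0049).

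Ifngr1 and Tlr4 fell while most of the adaptors and kinases rose. Among the LPS and interferon-gamma receptors, adaptors and kinases, 18 of 27 rose and 4 fell at 6 h (median log2 fold change 0.93, turning to -0.34 with total count scaling, with 17 and 4 without S37 and 9 and 11 with total counts), and 17 of 27 rose and 4 fell at 24 h (median log2 fold change 0.99, turning to -0.09 with total count scaling, with 12 and 4 without S37 and 6 and 11 with total counts). Ifngr1, the ligand-binding chain of the interferon-gamma receptor, stood at 234, 222 and 209 at 0 h, 43.6, 32.3 and 33 at 6 h and 84.7, 80.8 and 80.5 at 24 h CPM. The treated units lay below every resting unit at both times and were lowest at 6 h, with log2 fold changes of -2.62 ± 0.22 and -1.43 ± 0.21. Tlr4, the LPS receptor, stood at 84.0, 36 and 55.8 at 0 h, 15.6, 37.7 and 20.4 at 6 h and 16, 31.3 and 28.5 at 24 h CPM. S36 and S38 fell at both times, whereas S37 began lowest and barely moved. The log2 fold change was -1.33 ± 0.40 at 6 h and -1.28 ± 0.40 at 24 h, and it no longer passed without S36 (-0.67 and -0.64) or, at 6 h, without S38 (-1.29). Myd88, the adaptor of most Toll-like receptors, rose at both times (2.80 ± 0.19 and 1.73 ± 0.19), as did Jak2, a kinase of the interferon-gamma receptor (4.33 ± 0.24 and 2.42 ± 0.23), and Irak3, the inactive IRAK that restrains the pathway (1.90 ± 0.26 and 2.74 ± 0.26). Irak4, the kinase next to MyD88, fell (-1.35 ± 0.21 and -0.88 ± 0.20).

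Cd14, the LPS co-receptor, differed widely between the cultures. It stood at 1094, 651 and 994 at 0 h, 33586, 1343 and 25593 at 6 h and 4727, 3345 and 5566 at 24 h CPM. S36 and S38 rose steeply at 6 h, whereas S37 ended little above the resting levels of the others. By 24 h all 3 lay above every resting unit, and the log2 fold change was 4.0 ± 0.75 at 6 h and 2.33 ± 0.67 at 24 h, where leaving out S38 ended the call (2.29). The list of Toll-like receptors, which holds Tlr4 and the chaperone gene Unc93b1 too, went several ways: 5 of 11 rose and 3 fell at 6 h (median log2 fold change 0.66, turning to -0.57 with total count scaling, with 5 and 3 without S37 and 3 and 5 with total counts), and 3 of 11 rose and 6 fell at 24 h (median log2 fold change -0.87, with 1 and 6 without S37 and 0 and 8 with total counts). Tlr1 and Tlr6, which pair with TLR2 for bacterial lipoproteins, rose at 6 h (3.15 ± 0.23 and 2.24 ± 0.20), as did Tlr3, the endosomal sensor of double-stranded RNA (2.38 ± 0.30). Tlr13, a sensor of bacterial ribosomal RNA, stood at 202, 148 and 169 at 0 h, 15.7, 6.45 and 19.5 at 6 h and 55.8, 89.4 and 81.2 at 24 h CPM. Every 6 h unit lay 7.59-fold or more below rest, and the 24 h units had partly returned. Its log2 fold change was -3.69 ± 0.33 at 6 h and -1.18 ± 0.30 at 24 h, the latter not passing without S36 (-0.88).

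NF-kB subunits and their inhibitors rose as a group. Of the tested members, 14 of 15 rose and 0 fell at 6 h (median log2 fold change 3.79, with 14 and 0 without S37 and 12 and 2 with total counts), and 14 of 15 rose and 0 fell at 24 h (median log2 fold change 1.69, with 14 and 0 without S37 and 7 and 1 with total counts), against medians of -0.09 and -0.06 over all genes. Tnfaip3, which encodes A20, a ubiquitin-editing inhibitor of NF-kB, stood at 11.2, 19.4 and 12.1 at 0 h, 2702, 1173 and 2139 at 6 h and 93.2, 85.7 and 159 at 24 h CPM. All 6 treated units lay above rest, the 6 h units by 60.3-fold or more, and those at 24 h had come down again in each culture. The rise was 7.08 ± 0.45 at 6 h and 2.92 ± 0.38 at 24 h (edgeR adjusted p = 3.2e-10 and edgeR adjusted p = 4.8e-06). Nfkbia, which encodes the inhibitor IkB-alpha, changed by 5.03 ± 0.47 and 3.89 ± 0.44, Nfkbie by 5.84 ± 0.36 and 3.69 ± 0.33, and Nfkb1, the p105 and p50 subunit, by 4.22 ± 0.21 at 6 h. The subunit Rel rose at 6 h (3.67 ± 0.24) and stood near rest at 24 h (-0.03 ± 0.23, not passing the test).

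Feedback inhibitors of both pathways rose too, some of them late. In that list 19 of 24 rose and 3 fell at 6 h (median log2 fold change 2.81, with 20 and 3 without S37), and 18 of 24 rose and 2 fell at 24 h (median log2 fold change 2.55, with 19 and 1 without S37 and 15 and 5 with total counts). Socs1, the inhibitor of JAK kinases whose promoter is printed above, stood at 0.218, 0.175 and 0.246 at 0 h, 16.7, 17 and 13.8 at 6 h and 73.9, 88.2 and 157 at 24 h CPM. The 3 times did not overlap and each culture rose at both steps. Its log2 fold change was 6.20 ± 0.43 at 6 h and 8.88 ± 0.43 at 24 h. Socs3, which restrains cytokine receptors of the IL-6 type, rose by 8.35 ± 0.54 and 9.08 ± 0.55, from resting levels of 0.654, 0.790 and 0.123 CPM. Il1rn, the antagonist of the IL-1 receptor, rose by 7.76 ± 0.44 and 6.44 ± 0.41, and Cd274, which encodes PD-L1, by 5.90 ± 0.51 and 6.57 ± 0.53. Zfp36l2, an RNA-binding protein that destabilises messenger RNA, fell (-1.65 ± 0.21 and -2.23 ± 0.22).

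Most cytokine genes rose by 6 h and had turned down by 24 h, 19 of 27 by the contrasts above. In the list 23 of 27 rose and 2 fell at 6 h (median log2 fold change 5.38, with 23 and 2 without S37), 20 of 27 rose and 3 fell at 24 h (median log2 fold change 2.90, with 18 and 3 without S37), and 2 of 27 rose and 20 fell from 6 h to 24 h (median log2 fold change -2.06, with 1 and 21 without S37). Il12b, the p40 subunit shared by IL-12 and IL-23, stood at 8.86, 72.0 and 16.9 at 0 h, 15296, 20108 and 10657 at 6 h and 152, 173 and 221 at 24 h CPM. The lowest 6 h unit lay 148-fold above the highest resting one, and the highest 24 h unit lay 48.3-fold below the lowest 6 h one, still above rest. S37 was the highest at rest and at 6 h. The log2 fold change was 9.24 ± 0.91 at 6 h, 2.93 ± 0.71 at 24 h (2.46 and not passing without S38) and -6.32 ± 0.80 between them.

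Il6, the interleukin-6 gene whose promoter is printed above, stood at 0.944, 4.87 and 2.21 at 0 h, 3622, 1287 and 3334 at 6 h and 149.7, 34.8 and 203 at 24 h CPM. The 3 times did not overlap, and S37 was the lowest of the treated units at each time. It rose by 9.71 ± 0.81 at 6 h and stood 5.22 ± 0.70 above rest at 24 h (edgeR adjusted p = 1.0e-08 and edgeR adjusted p = 7.7e-06). Tnf, the tumour necrosis factor gene, stood at 6.97, 17.2 and 13.8 at 0 h, 3249.8, 2517 and 2898 at 6 h and 262, 295 and 258 at 24 h CPM. The 6 h units were within 1.29-fold of each other, S37 included, and no group overlapped another. Its log2 fold change was 7.89 ± 0.47 at 6 h and 4.46 ± 0.40 at 24 h.

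Il1b, which encodes IL-1 beta, reached 37596, 7752 and 30501 CPM at 6 h and changed by 8.79 ± 0.55 and, at 24 h, by 7.00 ± 0.51. Il1a was the more extreme, from 1.96, 11 and 4.85 CPM at rest to 15898, 2558 and 11348 at 6 h, a log2 fold change of 10.29 ± 0.93. In both genes S37 was the lowest culture at 6 h, by 4.85-fold and 6.21-fold under the highest. Il27, a subunit of the cytokine IL-27, rose by 9.01 ± 0.54 at 6 h and fell (-6.69 ± 0.48 from 6 h to 24 h), the steepest such fall among the genes named by rank. Ifnb1, interferon-beta, rose by 5.38 ± 0.40 at 6 h, and Il10, an anti-inflammatory cytokine, by 4.86 ± 0.52 and 3.47 ± 0.52. The members that fell at both times were Tnfsf14, a TNF family ligand (-2.47 ± 0.75 and -4.15 ± 0.90, with a 6 h value of -1.84, -4.69 and -1.80 without S36, S37 and S38, passing only without S37), and Il16 (-1.78 ± 0.32 and -2.09 ± 0.33), a chemoattractant for CD4+ cells.

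**Figure D2:**
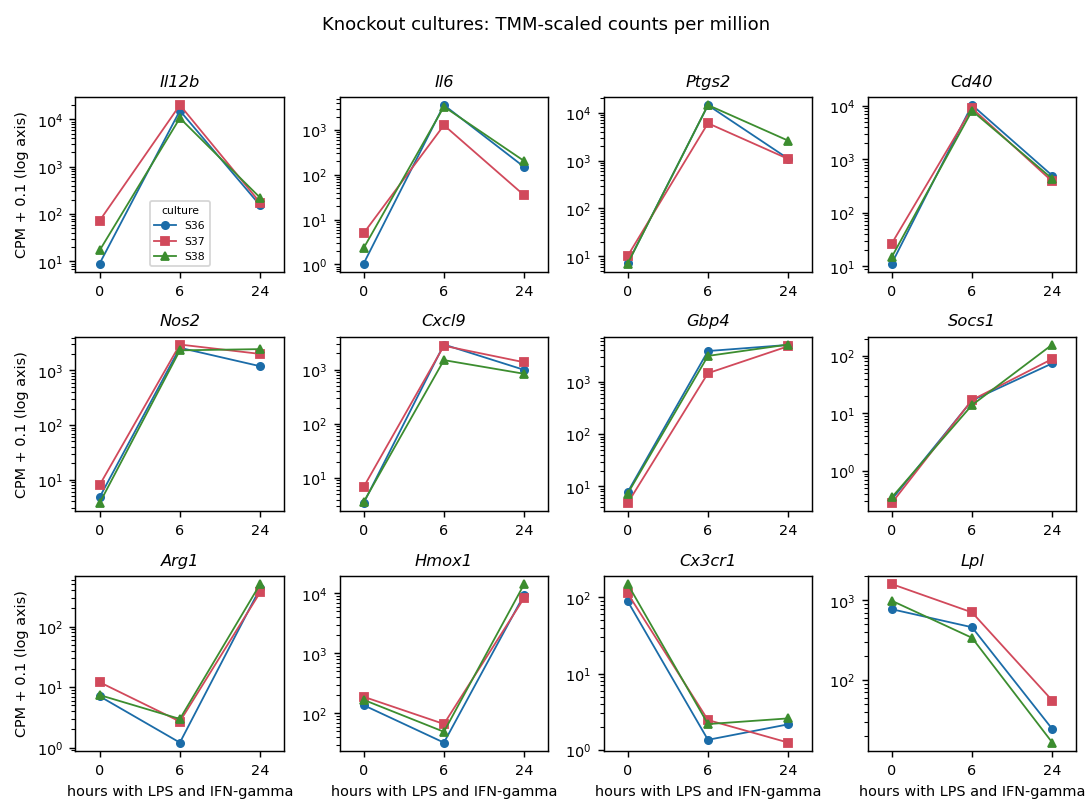
TMM-scaled CPM plus 0.1 on a log axis (vertical, one scale per panel) at 0, 6 and 24 h (horizontal) for 12 genes in the 9 knockout units, with a line for each culture. Il12b, Il6, Ptgs2 and Cd40 peak at 6 h, Nos2, Cxcl9 and Gbp4 stay high at 24 h, Socs1 climbs at both steps, Arg1 and Hmox1 dip at 6 h and rise at 24 h, and Cx3cr1 and Lpl end far below rest.

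Chemokines split into those that faded by 24 h and those that did not. Of the list, 17 of 21 rose and 2 fell at 6 h (median log2 fold change 4.55, with 17 and 2 without S37), 16 of 21 rose and 3 fell at 24 h (median log2 fold change 3.40, with 15 and 3 without S37), and 2 of 21 rose and 12 fell from 6 h to 24 h (median log2 fold change -1.37, with 2 and 11 without S37). Cxcl9, an interferon-gamma-induced ligand of CXCR3, stood at 3.34, 6.71 and 3.50 at 0 h, 2917, 2765 and 1503 at 6 h and 992, 1372 and 840.5 at 24 h CPM. All 6 treated units lay 125-fold or more above every resting unit, and each culture came down somewhat from 6 h to 24 h. It rose by 9.05 ± 0.52 and 7.90 ± 0.50. Cxcl10 and Cxcl11, the other ligands of that receptor, rose by 8.18 ± 0.61 and 6.95 ± 0.48 at 6 h and by 7.67 ± 0.60 and 7.12 ± 0.47 at 24 h. Ccl3, a ligand of CCR1, stood at 11.8, 26.6 and 17.6 at 0 h, 15438, 1817 and 10122 at 6 h and 597, 160.2 and 556 at 24 h CPM. S37 was the lowest of the treated units at both times, by 8.50-fold under the highest at 6 h, and the times did not overlap. Ccl3 changed by 8.41 ± 0.77 and 4.12 ± 0.64. The neutrophil attractants Cxcl1 and Cxcl2 rose by 7.96 ± 0.98 and 8.59 ± 0.89 at 6 h and fell from there (-5.17 ± 0.83 and -4.03 ± 0.71). Ccl2, the monocyte attractant, rose further (4.55 ± 0.34 at 6 h, 5.96 ± 0.36 at 24 h).

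Of the falling chemokines, Pf4, platelet factor 4, stood at 718, 1665 and 864 at 0 h, 666, 1275 and 526 at 6 h and 78.1, 332 and 79.2 at 24 h CPM. The 6 h units overlapped rest, all 24 h units lay below, and S37 was the highest at every time. It did not pass the test at 6 h (-0.40 ± 0.28) and fell by 24 h (-2.97 ± 0.30). Among chemoattractant receptors 8 of 16 rose and 5 fell at 6 h (median log2 fold change 0.66, turning to -0.60 with total count scaling, with 8 and 5 without S37 and 5 and 8 with total counts), and 6 of 16 rose and 6 fell at 24 h (median log2 fold change 0.34, turning to -0.71 with total count scaling, with 6 and 7 without S37 and 5 and 8 with total counts). Cx3cr1, the fractalkine receptor, stood at 89.2, 113 and 150.0 at 0 h, 1.25, 2.36 and 2.08 at 6 h and 2.06, 1.14 and 2.48 at 24 h CPM. Every treated unit lay 35.9-fold or more below every resting one. On the log2 scale the change was -5.93 ± 0.34 and -5.88 ± 0.33. Fpr1 and Fpr2, receptors for formylated bacterial peptides, rose by 6.69 ± 0.60 and 5.83 ± 0.41 at 24 h, and Ccr7, which guides cells to lymph nodes, by 5.34 ± 0.33. Ccr2, the receptor for CCL2, fell (-1.99 ± 0.24 at 24 h).

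Every tested member of the interferon-gamma-induced GTPases rose at both times. These guanylate-binding and immunity-related GTPases attack vacuoles that hold microbes: 20 of 20 rose and 0 fell at 6 h (median log2 fold change 5.64, with 20 and 0 without S37), and 20 of 20 rose and 0 fell at 24 h (median log2 fold change 5.99, with 20 and 0 without S37). Gbp4 stood at 7.70, 4.70 and 7.18 at 0 h, 3902, 1470.3 and 3148 at 6 h and 5114, 4827 and 5197 at 24 h CPM. Every treated unit lay 191-fold or more above rest, with S37 the lowest at 6 h and level with the others at 24 h. Gbp4 rose by 8.71 ± 0.57 and 9.65 ± 0.59 (edgeR adjusted p = 4.5e-10 and edgeR adjusted p = 5.0e-10). Gbp5, whose promoter is printed above, stood at 17.5, 5.75 and 11.4 at 0 h, 6206, 5271 and 7007 at 6 h and 803, 1075 and 1329 at 24 h CPM. Unlike Gbp4 it came down in each culture by 24 h, without reaching rest. It rose by 9.12 ± 0.63 and stood 6.62 ± 0.57 above rest at 24 h. Gbp10, Tgtp1 and Gbp8 rose again from 6 h to 24 h, reaching 10.09 ± 0.45, 9.53 ± 0.71 and 8.46 ± 0.43 at 24 h. At rest the cultures lay 36.4-fold apart in Tgtp1 and 8.28-fold in Gbp8, against 1.81-fold in Gbp10. The median change of the list in S36, S37 and S38 was 5.34, 6.17 and 5.24 at 6 h. At 24 h it was 5.18, 7.28 and 5.49. Near-identical Gbp and Tgtp copies can share reads, so the split between members is uncertain.

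Type I interferon-stimulated genes rose in all but 1 of the tested members at 6 h, and here too the cultures began at different levels. Of the list 45 of 46 rose and 0 fell at 6 h (median log2 fold change 2.99, with 42 and 0 without S37), and 39 of 46 rose and 0 fell at 24 h (median log2 fold change 2.27, with 29 and 0 without S37). The median change within a culture was 2.49 in S36, 4.04 in S37 and 2.58 in S38 at 6 h and 1.53, 3.81 and 1.74 at 24 h. Irf7, a transcription factor that amplifies interferon production, stood at 925, 49.1 and 631 at 0 h, 2527, 751 and 2125 at 6 h and 2889, 3118 and 4259 at 24 h CPM. S37 was far below the other cultures at rest, by 18.8-fold under the highest, and level with them at 24 h, and at 6 h its unit lay above the resting level of S38 and below that of S36. Its changes were 2.04 ± 0.79 and 3.33 ± 0.87, and at 6 h it did not pass without S37 (1.58), without S38 (2.27) or without the control culture S33 (2.04), which adds to the estimate of spread. Ifit1, which binds RNA that lacks host cap methylation, stood at 472, 46.2 and 329 at 0 h, 7175, 2292 and 5545 at 6 h and 3841, 3195 and 3226 at 24 h CPM. Here too the resting unit of S37 was the lowest, and all treated units lay above all resting ones. It rose by 4.36 ± 0.68 and 4.08 ± 0.69. Rsad2, which encodes viperin, rose by 5.54 ± 0.81 and 4.67 ± 0.79 and Isg15, a ubiquitin-like modifier, by 4.15 ± 0.29 and 5.65 ± 0.31. Bst2, tetherin, was among the members that rose further after 6 h (3.25 ± 0.43), while Ifih1, the RNA sensor MDA5, came down (-3.21 ± 0.48).

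**Figure D3:**
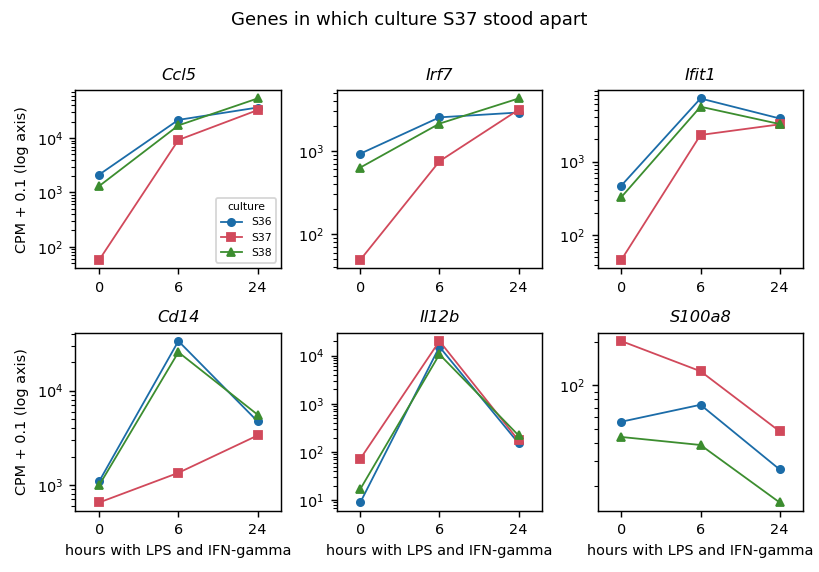
TMM-scaled CPM plus 0.1 on a log axis (vertical, one scale per panel) at 0, 6 and 24 h (horizontal) for 6 genes, with a line for each knockout culture. S37 begins far below the other cultures in Ccl5, Irf7 and Ifit1, reaches 1343 CPM of Cd14 at 6 h where the others reach 33586 and 25593, and begins above them in Il12b and S100a8; the genes were chosen after their values were seen.

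S37 stood apart in other measures as well. It separated on the third principal component of the 9 units (3.96% of the variance, after 70.7% and 20.1% on the components that follow time), and 25862 genes were detected in its resting unit against 22004 and 23313. That excess was uneven among its resting libraries, with 19365, 23644 and 16958 genes detected in repeats 1, 2 and 3. Their median correlations with the other resting libraries were 0.879, 0.898 and 0.937, and an alternative leaves out repeats 1 and 2. Changes at 6 h correlated across genes at 0.894 and 0.914 between S37 and the other cultures and at 0.953 between those. Ccl5, a chemokine for T cells and monocytes, stood at 2134, 57.2 and 1314 at 0 h, 21688, 9254 and 17152 at 6 h and 36623, 32802 and 53806 at 24 h CPM, with S37 37.3-fold under the highest culture at rest and all cultures within 1.64-fold at 24 h. Ccl5 changed by 4.24 ± 1.07 and 5.77 ± 1.16. The neutrophil and granule list summed to 724 CPM in S37 at rest against 321 and 263, with S100a8 at 55.8, 204 and 43.7 CPM, while Elane, a defining granule gene, was at 0.363, 1.62 and 0.737 CPM and was not detected at 6 h or 24 h in any unit. The osteoclast list summed to 164 against 60.2 and 69.1. Most of that excess was 1 gene, the proton pump subunit Atp6v0d2 at 17.1, 106 and 20.5 CPM, which is in the lysosome list too. Of 13 neutrophil genes tested, 10 fell by 24 h and the sum was then 123 to 203 CPM, and of 7 osteoclast genes 4 fell, or 2 without S37. Whether neutrophils or osteoclasts were present, and any part of theirs in the other results, was not tested.

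Interferon regulatory factors are transcription factors that sit between both stimuli and these targets. Of them 4 of 8 rose and 1 fell at 6 h (median log2 fold change 0.72, turning to -0.54 with total count scaling, with 3 and 0 without S37 and 2 and 4 with total counts), and 5 of 8 rose and 0 fell at 24 h (median log2 fold change 0.95, turning to -0.10 with total count scaling, with 5 and 0 without S37 and 3 and 2 with total counts). Irf1, an early target of interferon-gamma, stood at 66.7, 35.1 and 58.8 at 0 h, 2499, 1595 and 1829 at 6 h and 2481, 2485 and 2629 at 24 h CPM. All treated units lay 23.9-fold or more above rest, within 1.57-fold of each other at 6 h. It rose by 5.22 ± 0.34 and 5.62 ± 0.34. Irf8, a lineage factor of monocytes and macrophages, peaked early (3.98 ± 0.33, then 1.40 ± 0.30).

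Most antigen presentation genes of both classes rose. The change was largest in S37 for class I at both times and for class II and co-stimulation at 24 h. The median class I change in S36, S37 and S38 was 1.42, 2.38 and 1.66 at 6 h and 2.26, 3.68 and 2.55 at 24 h. In the class I and immunoproteasome list 19 of 22 rose and 0 fell at 6 h (median log2 fold change 1.53, with 16 and 0 without S37 and 7 and 1 with total counts), 21 of 22 rose and 0 fell at 24 h (median log2 fold change 2.85, with 18 and 0 without S37), and 13 of 22 rose and 1 fell from 6 h to 24 h (median log2 fold change 0.79, with 5 and 1 without S37). Tap1, a peptide transporter, rose by 3.31 ± 0.53 and 3.27 ± 0.54, and Psmb9, an immunoproteasome subunit, by 2.18 ± 0.27 and 2.90 ± 0.28. H2-K1 did not pass the test at 6 h (0.94 ± 0.44) and rose by 24 h (2.27 ± 0.47). H2-Q6 and H2-Q7 rose by 5.08 ± 0.84 and 4.42 ± 0.66 at 24 h, where near-identical copies again can share reads. In the class II and co-stimulation list 11 of 16 rose and 0 fell at 6 h (median log2 fold change 1.96, with 13 and 0 without S37 and 7 and 3 with total counts), and 14 of 16 rose and 1 fell at 24 h (median log2 fold change 2.26, with 13 and 1 without S37). The median change of that list in S36, S37 and S38 was 1.80, 1.82 and 1.57 at 6 h. At 24 h it was 1.39, 3.26 and 1.45, and the fitted median was 1.44 without S37. H2-Ab1, a class II beta chain, stood at 57.8, 59.4 and 94.9 at 0 h, 197, 252 and 267 at 6 h and 404, 1996 and 562 at 24 h CPM. At 24 h S37 was the highest, 4.94-fold over the lowest, and the 3 times did not overlap. H2-Ab1 changed by 1.73 ± 0.45 and 3.55 ± 0.50. Ciita, the master regulator of class II genes, was likewise highest in S37 at 6 h, at 4.86, 33.6 and 7.72 CPM, and rose by 3.71 ± 0.41.

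Cd40, the co-stimulatory receptor for CD40 ligand, stood at 11.2, 26.6 and 14.9 at 0 h, 10399, 9070.3 and 8144 at 6 h and 498, 388 and 435 at 24 h CPM. The 3 times did not overlap, and the cultures were within 1.28-fold at 6 h and 1.28-fold at 24 h. It rose by 9.07 ± 0.47 at 6 h and stood 4.69 ± 0.39 above rest at 24 h. Cd86, a ligand of CD28, rose by 4.83 ± 0.47 and 4.37 ± 0.46, and Icosl, a ligand of ICOS, rose at 6 h (2.82 ± 0.38) and lay below rest at 24 h (-2.06 ± 0.51, or -1.58 and not passing without S38).

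Both enzymes that use up arginine were induced, at different times. In the nitric oxide, arginine and itaconate list 9 of 11 rose and 2 fell at 6 h (median log2 fold change 4.39, with 9 and 2 without S37), and 9 of 11 rose and 0 fell at 24 h (median log2 fold change 5.29, with 9 and 0 without S37 and 8 and 2 with total counts). Nos2, the inducible nitric oxide synthase, stood at 4.65, 7.86 and 3.62 at 0 h, 2598, 2978 and 2331 at 6 h and 1194, 2005 and 2455 at 24 h CPM. Every treated unit lay 152-fold or more above rest, and the 2 treated times overlapped. It rose by 8.97 ± 0.48 and 8.46 ± 0.47 (edgeR adjusted p = 5.4e-11 and edgeR adjusted p = 2.1e-10). Arg1, arginase 1, which competes with it for arginine, stood at 6.97, 12 and 7.31 at 0 h, 1.11, 2.61 and 2.88 at 6 h and 431, 369 and 506 at 24 h CPM. All 6 h units lay below rest and all 24 h units 30.8-fold or more above it. Arg1 changed by -1.99 ± 0.30 at 6 h and 5.66 ± 0.29 at 24 h, and from 6 h to 24 h it rose by 7.65 ± 0.33. Irg1 (Acod1), which makes itaconate, reached 50378, 23251 and 42658 CPM at 6 h and rose by 7.75 ± 0.70 and 6.61 ± 0.67. Ass1, which rebuilds arginine from citrulline, rose by 2.13 ± 0.42 and 3.43 ± 0.46, and Gch1, which makes the cofactor of nitric oxide synthase, by 4.39 ± 0.33 and 2.25 ± 0.31.

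Ptgs2, which encodes cyclooxygenase 2, showed the steepest rise at 6 h among the genes named by rank. It stood at 7.05, 10.1 and 6.94 at 0 h, 14427, 6056 and 14546 at 6 h and 1096, 1084 and 2613 at 24 h CPM. Every treated unit lay 108-fold or more above every resting one, with S37 lowest at 6 h. Ptgs2 changed by 10.39 ± 0.62 and 7.48 ± 0.56 (edgeR adjusted p = 1.7e-10 and edgeR adjusted p = 5.2e-09). Ptges, the inducible prostaglandin E synthase, rose by 5.75 ± 0.53 and 6.07 ± 0.53, while Ptgs1, the constitutive cyclooxygenase, fell (-3.85 ± 0.37 and -5.53 ± 0.43). The list as a whole leaned down: 5 of 17 rose and 9 fell at 6 h (median log2 fold change -0.89, with 5 and 9 without S37 and 4 and 12 with total counts), and 5 of 17 rose and 7 fell at 24 h (median log2 fold change -0.35, with 7 and 6 without S37 and 4 and 10 with total counts). Lta4h, which makes leukotriene B4, fell at 6 h (-2.80 ± 0.29), as did Ltc4s, leukotriene C4 synthase (-3.33 ± 0.79), while the cytosolic phospholipase Pla2g4a rose to 5.01 ± 0.34 at 24 h.

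Antioxidant genes rose late. In the list of NADPH oxidase subunits and targets of the factor NRF2, 9 of 24 rose and 8 fell at 6 h (median log2 fold change -0.04, turning to 0.02 with DESeq2 size factors, with 8 and 6 without S37 and 4 and 15 with total counts), 23 of 24 rose and 0 fell at 24 h (median log2 fold change 1.68, with 21 and 0 without S37), and 17 of 24 rose and 1 fell from 6 h to 24 h (median log2 fold change 1.58, with 16 and 1 without S37). Hmox1, heme oxygenase 1, stood at 136, 189 and 168 at 0 h, 32.4, 66.3 and 49.1 at 6 h and 9501, 8400.1 and 14249.5 at 24 h CPM. All 6 h units lay below rest, and all 24 h units 44.5-fold or more above it. The log2 fold change was -1.76 ± 0.38 at 6 h and 6.04 ± 0.46 at 24 h, and the rise from 6 h to 24 h of 7.80 ± 0.50 was the steepest named by rank. Gclm, a subunit of the enzyme that starts glutathione synthesis, followed the same course (-1.01 ± 0.24, then 3.16 ± 0.25), and Nqo1, a quinone reductase, stood 1.62 ± 0.34 above rest at 24 h. Slc48a1, a heme transporter, also fell and then rose (-2.98 ± 0.27 and 2.85 ± 0.27). Prdx1, a peroxiredoxin, reached 21732, 39402 and 32218 CPM at 24 h and rose by 1.46 ± 0.41 (1.06 and not passing without S37) and 3.86 ± 0.45. Slc7a11, the cystine transporter, had risen by 6 h and held (3.41 ± 0.31 and 3.77 ± 0.31), and Cybb, the catalytic subunit of the phagocyte oxidase, rose by 2.61 ± 0.36 and 1.97 ± 0.36.

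Most glycolytic genes rose at both times. Of the list 15 of 22 rose and 3 fell at 6 h (median log2 fold change 1.68, with 15 and 3 without S37 and 11 and 7 with total counts), and 19 of 22 rose and 0 fell at 24 h (median log2 fold change 2.69, with 19 and 1 without S37 and 18 and 3 with total counts). Pfkfb3, which makes the activator of phosphofructokinase, stood at 40.5, 20.7 and 28.6 at 0 h, 318, 123 and 296 at 6 h and 726, 736 and 883 at 24 h CPM. The 3 times did not overlap, and S37 was the lowest at rest and at 6 h. It rose by 3.0 ± 0.31 and 4.78 ± 0.34. Slc2a1, the glucose transporter GLUT1, rose by 3.05 ± 0.32 and 3.0 ± 0.32, and Slc2a6, a lysosomal hexose transporter, by 6.28 ± 0.38 and 2.93 ± 0.33. Hif1a, the factor behind many glycolytic genes, rose by 3.73 ± 0.30 and 2.55 ± 0.28, and Slc16a3, which exports lactate, by 2.57 ± 0.23 and 4.25 ± 0.24. Pkm, pyruvate kinase, did not pass the test at 6 h (0.63 ± 0.30) and rose by 3.14 ± 0.33 at 24 h.

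Many mitochondrial enzyme genes fell at 6 h. In the tricarboxylic acid cycle list 2 of 23 rose and 14 fell at 6 h (median log2 fold change -0.66, with 1 and 13 without S37 and 0 and 22 with total counts), and 5 of 23 rose and 7 fell at 24 h (median log2 fold change -0.04, with 4 and 6 without S37 and 0 and 19 with total counts). Idh1, the cytosolic isocitrate dehydrogenase, stood at 104, 199.7 and 122 at 0 h, 5.28, 12.3 and 7.61 at 6 h and 27.8, 27.1 and 21.7 at 24 h CPM. All treated units lay below all resting ones, and those of 6 h below those of 24 h. It fell (-4.08 ± 0.26 at 6 h) and stood at -2.40 ± 0.24 at 24 h. Idh2, its mitochondrial counterpart, fell at both times (-1.61 ± 0.23 and -2.90 ± 0.24), and Fh1, fumarase, fell at 6 h (-1.91 ± 0.20). Among nuclear-encoded subunits of oxidative phosphorylation 5 of 36 rose and 17 fell at 6 h (median log2 fold change -0.41, with 5 and 12 without S37 and 1 and 33 with total counts), 14 of 36 rose and 0 fell at 24 h (median log2 fold change 0.29, turning to -0.77 with total count scaling, with 12 and 0 without S37 and 1 and 23 with total counts), and 24 of 36 rose and 1 fell from 6 h to 24 h (median log2 fold change 0.69, with 21 and 1 without S37). Ndufb8 of complex I fell (-1.72 ± 0.25) at 6 h and did not pass the test at 24 h (-0.22 ± 0.23), whereas Cycs, cytochrome c, rose at both times (2.04 ± 0.21 and 2.13 ± 0.21). Mitochondrial genes took 4.78% to 6.45% of counts at 6 h and 2.84% to 3.87% at 24 h, against 6.51% to 7.41% at rest, and of 12 mitochondrially encoded genes tested 1 rose at 6 h and 1 fell at 24 h on the TMM scale. Their median log2 fold change was 0.42 at 6 h and 0.28 at 24 h, turning to -0.865 and -0.79 with total count scaling. With total counts 0 of 12 rose and 11 fell at 6 h, and 0 rose and 9 fell at 24 h.

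**Figure D4:**
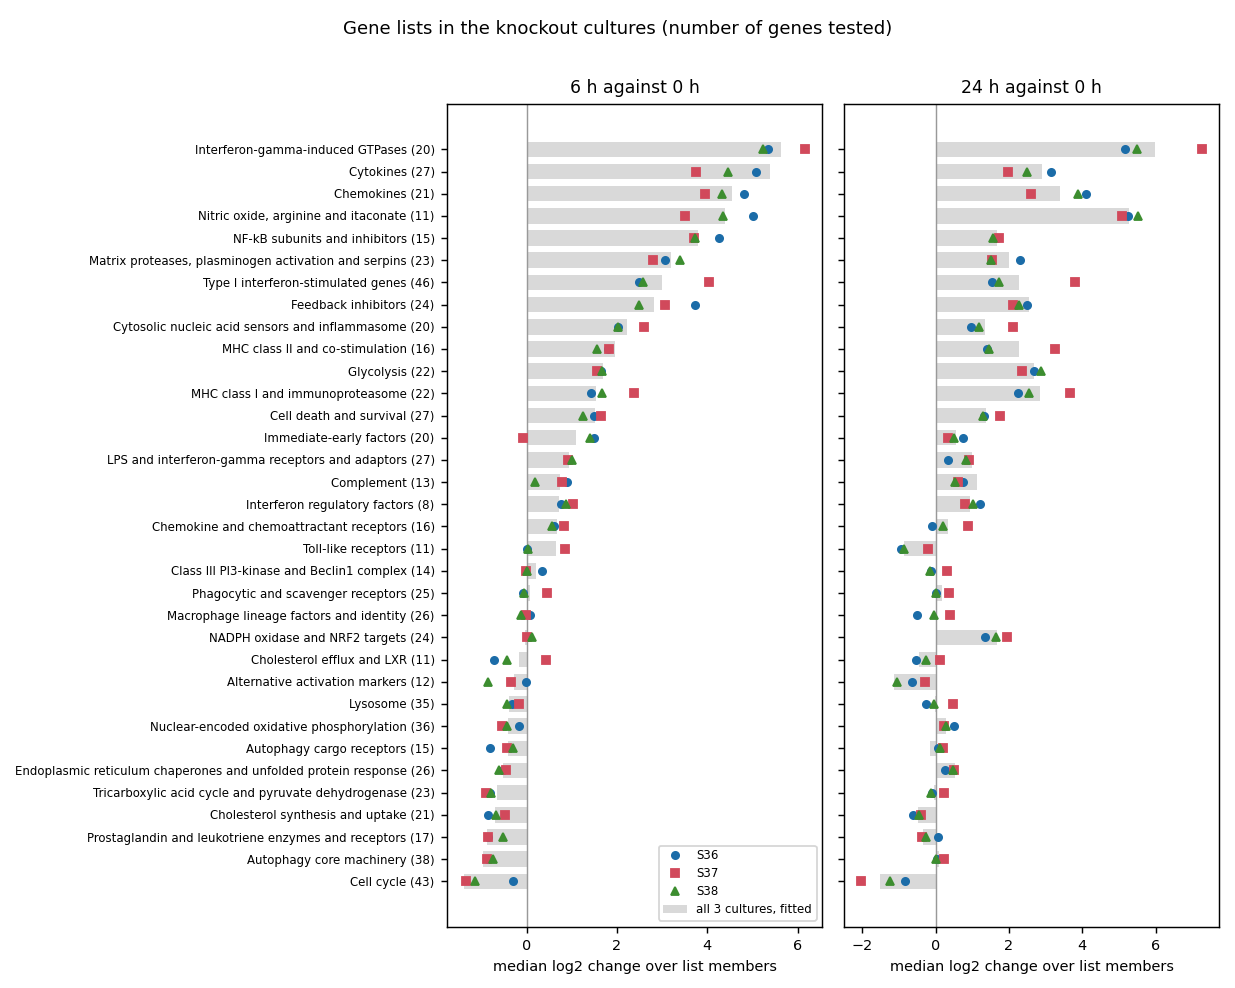
Median log2 change over the tested members of each of 34 gene lists (number in brackets) at 6 h (left) and 24 h (right) against 0 h in the knockout cultures. Grey bars are medians of the fitted fold changes and symbols the median change within each culture; S37 lies to the right of the others for type I interferon-stimulated genes, at 4.04 and 3.81.

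Most called genes of the autophagy machinery fell at 6 h, and most of the list rose from there to 24 h. Of the core list 4 of 38 rose and 22 fell at 6 h (median log2 fold change -0.98, with 4 and 21 without S37 and 0 and 35 with total counts), 11 of 38 rose and 9 fell at 24 h (median log2 fold change 0.10, turning to -0.97 with total count scaling, with 9 and 9 without S37 and 2 and 28 with total counts), and 25 of 38 rose and 2 fell from 6 h to 24 h (median log2 fold change 0.98, with 21 and 3 without S37). Atg7, the enzyme that activates ATG8 proteins, stood at 30.8, 18.8 and 31.1 at 0 h, 3.89, 6.08 and 5.30 at 6 h and 18.9, 15.1 and 20.1 at 24 h CPM. All 6 h units lay under every resting and every 24 h unit, while rest and 24 h overlapped. It fell at 6 h (-2.36 ± 0.22) and rose from there (1.80 ± 0.23). Ulk1 and Ulk2, the kinases that start autophagy, fell at 6 h (-1.96 ± 0.28 and -2.93 ± 0.22). Atg5, part of the conjugation complex with ATG12, fell at 6 h (-1.89 ± 0.20) and rose from there (2.48 ± 0.20). Gabarapl1, an ATG8 protein, stood at 16.3, 17.3 and 18.6 at 0 h, 5.84, 4.96 and 9.80 at 6 h and 76.8, 55.7 and 65.2 at 24 h CPM. The 6 h units lay below rest and the 24 h units above it, with log2 fold changes of -1.37 ± 0.27 and 1.91 ± 0.25. Atg16l1 rose at 6 h (1.35 ± 0.21), 1 of 4 members to do so.

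Subunits of the Beclin1 complexes and proteins that bind or act with them, Becn1 itself included, did not move as one. Of that list 5 of 14 rose and 5 fell at 6 h (median log2 fold change 0.21, turning to -1.06 with total count scaling, with 5 and 4 without S37 and 1 and 12 with total counts), and 5 of 14 rose and 4 fell at 24 h (median log2 fold change 0.01, turning to -1.07 with total count scaling, turning to -0.02 with DESeq2 size factors, with 4 and 4 without S37 and 3 and 11 with total counts). Pik3c3, the lipid kinase VPS34, fell at 6 h (-1.01 ± 0.19). Atg14 and Uvrag, which define the autophagy and endosomal forms of the complex, fell at 6 h (-1.28 ± 0.32 and -1.05 ± 0.19) and did not pass the test at 24 h (-0.26 ± 0.30 and -0.07 ± 0.18). Sh3glb1, which binds UVRAG, rose (1.76 ± 0.26 and 1.77 ± 0.26), as did Rab5a, an endosomal GTPase (1.86 ± 0.19 and 1.70 ± 0.19).

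Cargo receptors were mixed: 4 of 15 rose and 7 fell at 6 h (median log2 fold change -0.41, with 4 and 8 without S37 and 3 and 11 with total counts), and 7 of 15 rose and 4 fell at 24 h (median log2 fold change -0.16, with 6 and 5 without S37 and 4 and 8 with total counts). Sqstm1, which encodes p62, stood at 1144, 358 and 1164 at 0 h, 1909, 650.2 and 2380.1 at 6 h and 3749, 4386 and 4958 at 24 h CPM. All 24 h units lay above all other units, and at rest and at 6 h S37 was the lowest, by 3.26-fold and 3.66-fold under the highest. Its log2 fold change at 24 h was 2.54 ± 0.38 (edgeR adjusted p = 3.0e-05). Bnip3, a mitophagy receptor, rose by 3.45 ± 0.30 and 4.76 ± 0.32, and Tax1bp1 by 2.1 ± 0.23 and 1.91 ± 0.23. Nbr1 fell at 6 h (-1.79 ± 0.20), and Calcoco1, a receptor for the endoplasmic reticulum and Golgi, fell (-2.60 ± 0.29 and -1.45 ± 0.26).

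Lysosomal genes divided by enzyme. In that list 6 of 35 rose and 15 fell at 6 h (median log2 fold change -0.40, with 4 and 14 without S37 and 1 and 30 with total counts), and 10 of 35 rose and 10 fell at 24 h (median log2 fold change -0.01, with 6 and 10 without S37 and 2 and 23 with total counts). Ctsc, cathepsin C, rose by 3.98 ± 0.44 and 3.71 ± 0.43, and Ctsh rose late (2.77 ± 0.31 at 24 h). Gusb, beta-glucuronidase, stood at 269, 225 and 286 at 0 h, 52.7, 77.3 and 49.5 at 6 h and 69.2, 94.7 and 64.7 at 24 h CPM. All treated units lay 2.37-fold or more below rest, and it fell (-2.16 ± 0.22 and -1.80 ± 0.22). Hexa, a hexosaminidase subunit, fell to -1.92 ± 0.28 at 24 h. Tfeb, a regulator of lysosomal genes, fell at 6 h (-3.45 ± 0.57) and rose from there (4.07 ± 0.56). The abundant protease genes Ctsb and Ctsd stood at 14514, 6797 and 11944 and 13596, 9709.8 and 12679 CPM at rest. Ctsb passed the test at neither time (0.36 ± 0.38 and -0.01 ± 0.39), and Ctsd fell at 6 h (-1.53 ± 0.34).

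The unfolded protein response showed a dip and a later rise. Of that list 3 of 26 rose and 12 fell at 6 h (median log2 fold change -0.53, with 3 and 13 without S37 and 1 and 22 with total counts), 12 of 26 rose and 1 fell at 24 h (median log2 fold change 0.53, turning to -0.53 with total count scaling, with 10 and 1 without S37 and 3 and 12 with total counts), and 16 of 26 rose and 2 fell from 6 h to 24 h (median log2 fold change 1.02, with 13 and 2 without S37). Hspa5, the chaperone BiP, rose at both times (1.65 ± 0.27 and 1.24 ± 0.27). Ddit3, which encodes CHOP, fell at 6 h (-1.82 ± 0.20) and rose from 6 h to 24 h (2.78 ± 0.21), and Trib3, a CHOP target, did the same (-2.01 ± 0.46 and 4.11 ± 0.43). Atf4, the factor of the integrated stress response, rose by 2.42 ± 0.19 at 24 h. Ppp1r15a, which reverses that response, rose by 4.20 ± 0.34 at 6 h and 2.54 ± 0.32 at 24 h.

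Most genes of the cell death and survival list rose. In it 20 of 27 rose and 4 fell at 6 h (median log2 fold change 1.52, with 18 and 4 without S37 and 10 and 9 with total counts), and 21 of 27 rose and 3 fell at 24 h (median log2 fold change 1.38, with 16 and 3 without S37 and 11 and 6 with total counts). Cflar, which encodes the caspase-8 inhibitor FLIP, stood at 67.2, 37.7 and 51.3 at 0 h, 1462, 1118 and 1239.8 at 6 h and 324, 331 and 308 at 24 h CPM. The 3 times did not overlap, and it rose by 4.63 ± 0.27 at 6 h and stood 2.66 ± 0.25 above rest at 24 h. Bcl2a1d, an A1 survival gene, rose by 8.17 ± 0.45 and 4.42 ± 0.40, where near-identical A1 copies can share reads. Mlkl, the executor of necroptosis, rose by 3.33 ± 0.33 and 3.02 ± 0.33, while Bcl2, a survival gene, fell at 24 h (-1.74 ± 0.43, or -1.45 and not passing without S36) and Bmf, a pro-apoptotic BCL-2 family member, fell (-4.50 ± 0.47 and -4.11 ± 0.43). Among nucleic acid sensors and inflammasome genes 16 of 20 rose and 2 fell at 6 h (median log2 fold change 2.23, with 16 and 1 without S37 and 10 and 5 with total counts), and 14 of 20 rose and 1 fell at 24 h (median log2 fold change 1.36, with 13 and 1 without S37 and 7 and 5 with total counts). Nlrp3 stood at 15.4, 9.96 and 16.1 at 0 h, 703, 286 and 785 at 6 h and 29.9, 43.8 and 45.4 at 24 h CPM. Units at 6 h lay 17.7-fold or more above rest, and the 24 h units had come down without overlapping it. It rose by 5.36 ± 0.34 and 1.58 ± 0.30. Casp1, caspase 1, rose at both steps (2.50 ± 0.25, then 3.87 ± 0.26), and Pycard, the adaptor ASC, fell at 24 h (-1.41 ± 0.24).

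Most called cell cycle genes fell. Of that list 6 of 43 rose and 23 fell at 6 h (median log2 fold change -1.38, with 6 and 18 without S37 and 2 and 37 with total counts), and 1 of 43 rose and 30 fell at 24 h (median log2 fold change -1.51, with 2 and 20 without S37). Ccna2, cyclin A2, stood at 1.74, 6.67 and 1.53 at 0 h, 1.39, 0.621 and 0.922 at 6 h and 0, 0.571 and 0 at 24 h CPM. S37 was the highest at rest, and every 24 h unit lay below every resting one. It fell (-1.51 ± 0.59 at 6 h and -4.25 ± 0.79 at 24 h), and without S37 the values were -0.52, which did not pass, and -7.15. Rrm2, a subunit of ribonucleotide reductase, fell (-2.70 ± 0.38 and -3.88 ± 0.42), as did Mcm5, of the replicative helicase (-1.44 ± 0.24 and -1.28 ± 0.24). Mki67, a mark of proliferation, fell below rest by 24 h (-2.25 ± 0.55), and Ccne1, cyclin E1, rose at both times (2.99 ± 0.55 and 4.10 ± 0.55).

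Genes of macrophage lineage and identity split evenly, with some deep losses by 24 h. In the lineage and identity list 9 of 26 rose and 9 fell at 6 h (median log2 fold change 0.01, turning to -1.27 with total count scaling, with 7 and 9 without S37 and 3 and 17 with total counts), and 9 of 26 rose and 10 fell at 24 h (median log2 fold change 0.04, turning to -1.05 with total count scaling, with 6 and 10 without S37 and 3 and 16 with total counts). Trem2, a lipid-sensing receptor, stood at 517, 631 and 639 at 0 h, 219, 199 and 148 at 6 h and 36.5, 36.7 and 34.2 at 24 h CPM. The 3 times did not overlap, and each culture fell at both steps. It fell (-1.67 ± 0.23 and -4.06 ± 0.25). Fcrls, an Fc receptor-like gene, fell (-5.09 ± 0.31 at 24 h). Csf1r, the receptor for M-CSF, fell at 6 h (-1.61 ± 0.30). Sfpi1 (Spi1), which encodes the lineage factor PU.1, rose by 2.67 ± 0.25 at 24 h.

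Lpl, lipoprotein lipase, stood at 773, 1600.4 and 988 at 0 h, 459, 705 and 338 at 6 h and 24.1, 55.1 and 16.2 at 24 h CPM. S37 was the highest at every time, and the 3 times did not overlap, the highest 6 h unit lying only 1.10-fold under the lowest resting one. It fell (-1.17 ± 0.28 and -5.26 ± 0.34). Olfml3, a secreted matrix protein, fell deepest at 24 h among the genes named by rank (-5.60 ± 0.33), followed by S100a4 (-5.46 ± 0.48) and Tmem176b (-5.29 ± 0.29). At 6 h the deepest was Cd300lb, an activating receptor of myeloid cells, at 319, 245 and 269 at 0 h, 2.36, 1.61 and 0.807 at 6 h and 8.15, 16.1 and 8.69 at 24 h CPM. The 6 h units lay 104-fold or more below rest, and the 24 h units had come back only in part. Its log2 fold change was -7.49 ± 0.44 and -4.71 ± 0.36. Sesn1, a stress-induced sestrin, fell (-5.92 ± 0.35 and -4.09 ± 0.31).

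Receptors for uptake and markers of alternative activation split. Among phagocytic and scavenger receptors 10 of 25 rose and 7 fell at 6 h (median log2 fold change 0.07, turning to -1.20 with total count scaling, with 11 and 7 without S37 and 5 and 14 with total counts), and 11 of 25 rose and 9 fell at 24 h (median log2 fold change 0.17, turning to -0.90 with total count scaling, with 8 and 8 without S37 and 8 and 14 with total counts). Clec4e, which encodes Mincle, a sensor of mycobacterial glycolipid, rose by 7.05 ± 0.49 and 5.13 ± 0.45, and Fcgr4, an activating Fc receptor, by 3.35 ± 0.39 and 3.61 ± 0.40. Mrc1, the mannose receptor, stood at 26.2, 37.7 and 28.4 at 0 h, 17.5, 49.1 and 11.3 at 6 h and 0.257, 0.428 and 0.517 at 24 h CPM. The 6 h units overlapped rest, with S37 above its own start, and every 24 h unit lay far below rest. It did not pass the test at 6 h (-0.46 ± 0.34), did so without S37 (-0.95), and fell (-6.26 ± 0.53 at 24 h). In the alternative activation list 4 of 12 rose and 4 fell at 6 h (median log2 fold change -0.28, with 4 and 3 without S37 and 2 and 7 with total counts), and 5 of 12 rose and 5 fell at 24 h (median log2 fold change -1.12, with 5 and 5 without S37). From 6 h to 24 h 3 of its members rose: Arg1, given above, Tgm2, a transglutaminase, and Klf4. Tgm2 stood 3.08 ± 0.27 above rest at 24 h. Pparg, a lipid-sensing nuclear receptor, fell (-4.38 ± 0.45 and -5.37 ± 0.48).

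Proteases and serpins held some of the steepest early rises. In that list 14 of 23 rose and 4 fell at 6 h (median log2 fold change 3.19, with 15 and 4 without S37 and 12 and 8 with total counts), 13 of 23 rose and 4 fell at 24 h (median log2 fold change 2.0, with 13 and 4 without S37 and 13 and 8 with total counts), and 3 of 23 rose and 12 fell from 6 h to 24 h (median log2 fold change -1.19, with 3 and 12 without S37). Mmp13, a collagenase, stood at 11.5, 20.1 and 12 at 0 h, 16639, 7472 and 7823 at 6 h and 139, 59.2 and 116 at 24 h CPM. Units at 6 h lay 371-fold or more above rest, and the 24 h units 53.8-fold or more below those. It rose by 9.38 ± 0.68 and then fell (-6.63 ± 0.60). Serpina3g, a protease inhibitor whose promoter is printed above, rose by 8.27 ± 0.44 and 8.03 ± 0.44, and Procr, the protein C receptor, by 8.39 ± 0.45 and 7.43 ± 0.43. Spp1, osteopontin, stood at 1026, 3457 and 1065 at 0 h, 1279, 2285 and 629 at 6 h and 106, 386 and 84.3 at 24 h CPM. S37 was the highest at all times, the 6 h units overlapped rest and the 24 h units lay below. It did not pass the test at 6 h (-0.33 ± 0.39) and fell (-3.37 ± 0.42 at 24 h). Plau, the urokinase gene, fell (-3.83 ± 0.31 and -4.20 ± 0.32).

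Cholesterol synthesis leaned down. In that list 4 of 21 rose and 10 fell at 6 h (median log2 fold change -0.70, with 3 and 9 without S37 and 0 and 17 with total counts), and 1 of 21 rose and 9 fell at 24 h (median log2 fold change -0.47, with 0 and 9 without S37). In the efflux and LXR list 4 of 11 rose and 4 fell at 6 h (median log2 fold change -0.17, with 2 and 5 without S37 and 1 and 8 with total counts), and 4 of 11 rose and 4 fell at 24 h (median log2 fold change -0.45, with 3 and 3 without S37 and 2 and 7 with total counts). Abca1, the cholesterol exporter, fell (-1.78 ± 0.31 and -1.18 ± 0.30, or -0.93 and not passing at 24 h without S36). Ch25h, which makes 25-hydroxycholesterol, stood at 0.654, 0.571 and 0.614 at 0 h, 369, 233 and 227 at 6 h and 23.2, 43.3 and 19.6 at 24 h CPM. Every treated unit lay 29.9-fold or more above rest, with the 6 h units highest, and it rose by 8.81 ± 0.46 and 5.50 ± 0.42.

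The control cultures responded in much the same measure. In them 3623 genes rose (26.5% of those tested) and 4334 fell (31.7%) at 6 h, and 3109 rose (22.7%) and 2885 fell (21.1%) at 24 h. Of the knockout's risers at 6 h, 2971 also rose in controls, 84.6% of the knockout's and 82.0% of the controls', and 4 fell there. Of its fallers 3666 were shared, 85.7% and 84.6%. At 24 h 2499 risers were shared (86.6% and 80.4%) and 2043 fallers (78.5% and 70.8%). Across the 13693 genes, which are not independent, the log2 fold changes of both genotypes correlated at 0.936 at 6 h and 0.912 at 24 h.

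As a difference of responses, knockout minus control, no gene passed in edgeR's quasi-likelihood test at 6 h or at 24 h (0% called at either time). Unadjusted p was under 0.05 for 731 and 713 genes, and DESeq2 called 16 and 29. The median standard error of the difference was 0.414 and 0.396 on the log2 scale, so differences of that size were not detectable with 3 cultures per genotype. Much larger ones did not pass either, as the values below show, so the absence of calls does not bound the differences closely. The smallest p at 6 h belonged to Serpinb2, plasminogen activator inhibitor 2. In knockout units it stood at 0.291, 0.439 and 0.123 at 0 h, 241, 58.6 and 95.3 at 6 h and 7.21, 3.43 and 4.45 at 24 h CPM, and in control units, in the order S33, S34 and S35, at 0.644, 0.675 and 0.686 at 0 h, 25.5, 18.3 and 27.8 at 6 h and 1.80, 0.828 and 1.5 at 24 h. The knockout units of 6 h all lay above the control units of 6 h, with S37 nearest to them. At rest the order was the reverse, with all knockout units (0.123 to 0.439 CPM) below all control units (0.644 to 0.686). These resting levels are very low, and the difference in response depends on them too. The log2 fold change at 6 h was 8.47 ± 0.37 in the knockout and 5.10 ± 0.33 in controls, a difference of 3.37 ± 0.55 (edgeR adjusted p = 0.097). At 24 h the difference was 2.91 ± 0.60 (edgeR adjusted p = 0.26). Without S37 both differences passed (4.45 and 3.79), the first as the single call at 6 h and the second as 1 of 14 at 24 h. Without the control culture S35, 1 gene passed at 6 h and 2 at 24 h.

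Serpina3f, a serpin close to Serpina3g, led at 24 h. Its knockout units stood at 1.09, 1.36 and 1.10 at 0 h, 467, 718 and 289 at 6 h and 162, 340.0 and 142 at 24 h CPM and its control units at 0.193, 0.337 and 0.153 at 0 h, 594, 743 and 363 at 6 h and 281, 228 and 185 at 24 h. The treated units of both genotypes overlapped, and the genotypes parted at rest, where all knockout units lay above all control ones. The difference in response was -2.55 ± 0.48 at 6 h and -2.51 ± 0.48 at 24 h (edgeR adjusted p = 0.29 and edgeR adjusted p = 0.26), and the second passed without S37 (-2.83). Cyp27a1, sterol 27-hydroxylase, changed by -5.69 ± 0.39 at 24 h in the knockout and by -3.11 ± 0.31 in controls, a difference of -2.58 ± 0.56 (edgeR adjusted p = 0.26). Becn1 differed by -0.00 ± 0.27 at 6 h and 0.10 ± 0.27 at 24 h, and neither passed (edgeR adjusted p = 1 at both times).

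**Figure D5:**
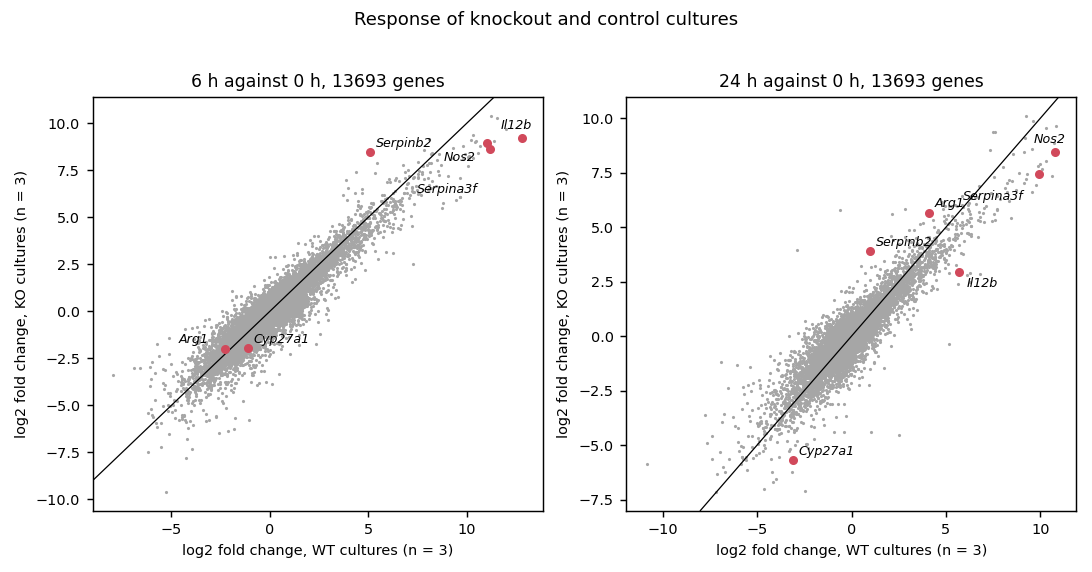
Log2 fold change against 0 h in the knockout cultures (vertical) and the control cultures (horizontal) for each of the 13693 genes tested, at 6 h (left) and 24 h (right); the line marks equal change and red points the genes named. Most genes lie along the line, with Serpinb2 above it at 8.47 against 5.10 at 6 h.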

How the data were processed

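Smart-Seq2 libraries of macrophage RNA, made with oligo-dT priming, template switching and tagmentation per the labels' protocols, were sequenced in pairs of 38-base reads. The protocol as known marks neither strand nor molecule. The authors deposited raw counts per gene symbol and library for 34573 symbols. Per the submitters' processing notes these were made with TopHat and HTSeq on mm10, with no versions, and the annotation is not given in the sources used here. Reads of overlapping, antisense or near-identical genes therefore cannot be assigned beyond these counts.

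Counts of the 3 repeats were summed per culture and time for the 9 knockout and 9 control units. No pair of knockout libraries of the same time looked like a copy (lowest chi-square per degree of freedom 3.10 over 108 pairs). Genes passing filterByExpr (13693) were fitted with TMM factors in edgeR 4.0.16 (R 4.3.3, limma 3.58.1), quasi-likelihood, with the culture number as a block and a 6 h and a 24 h effect in each genotype. Adjustment (Benjamini-Hochberg) covered every gene in the fit, and calls are at 0.05. Standard errors, after the ± sign, were taken as the size of the log2 fold change divided by the root of F. The script was tested on simulated data. The block rests on the culture number in the labels. In knockout units deviations from the group means, over 6150 genes, correlated within a number at 0.115, 0.333 and 0.339 between 0 h and 6 h, at -0.246, 0.141 and 0.193 between 0 h and 24 h and at 0.348, 0.427 and 0.298 between 6 h and 24 h, for S36, S37 and S38. The resting unit of S36 matched another number better at 6 h and at 24 h, and that of S37 did so at 24 h.

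The members and lists were chosen with earlier results of these data known. There are 34 function and 12 marker lists. Of their 854 genes 851 were found, 19 of them by an older symbol, and 3 were not. Lists are described by counts and medians, to be read against those over all genes, with no test of their own. Genes are named by a rule: Becn1 and Lyz2, key genes of the lists, the 10 highest and lowest changes per contrast whose average log2 CPM reached 3, up to 3 called members per list, time and direction, the 5 smallest p of each difference between genotypes, the 5 largest changes per response pattern whose average log2 CPM reached 5, and markers. Some genes that meet it are not reported here. Alternatives were DESeq2 1.42.0, its size factors, total counts, no filter beyond 1 count, no block, the 9 knockout units alone, single libraries as units, each culture left out, and the library with conflicting labels or repeats 1 and 2 of S37 at 0 h left out.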

Additional observations from a re-analysis of the deposited data

How the results depend on the processing

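With total count scaling 1225 genes were higher and 9090 lower at 6 h, and 975 higher and 9096 lower at 24 h. There 4 changes that had not passed the test passed it with the other sign: Becn1 at 24 h (-0.93), Pkm at 6 h (-0.63), Ctsb at 6 h (-0.91) and Jun at 24 h (-0.92). Fitted without the replicate block that pairs a culture across times, 3417 genes were higher and 4156 lower at 6 h, 2730 and 2539 at 24 h, 3641 and 2939 between 6 h and 24 h, and 0 differed between genotypes at either time. The difference between knockout and control responses, with 0 calls at 6 h and at 24 h, had 16 and 29 with DESeq2, 33 and 50 with no filter beyond 1 count, 142 and 216 with single libraries as units, which treats repeats as replicates, and 1 and 3 without repeats 1 and 2 of S37 at 0 h. The cause of these shifts was not tested.

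Leaving out 1 culture gave 2846 to 3227 genes higher and 3448 to 3794 lower at 6 h, 2177 to 2601 and 1783 to 2302 at 24 h, 2923 to 3408 and 2201 to 2628 between 6 h and 24 h, and 0 to 1 and 0 to 14 differences between genotypes. Of the 314 gene changes given, 271 kept their side of the threshold under every alternative run, and those that passed the test kept their direction too. A change that passed in neither fit counted as kept whatever its sign. With 3 cultures a group, differences near the standard errors given are not detectable, and between genotypes much larger ones did not pass.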

Other observations

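Immediate-early transcription factors, which answer a stimulus soonest, changed in both directions. Of that list 11 of 20 rose and 4 fell at 6 h (median log2 fold change 1.09, turning to -0.20 with total count scaling, with 13 and 3 without S37 and 5 and 6 with total counts), and 8 of 20 rose and 5 fell at 24 h (median log2 fold change 0.55, turning to -0.50 with total count scaling, with 9 and 4 without S37 and 7 and 8 with total counts). Fos, which forms AP-1 with JUN proteins, stood at 116, 97.8 and 139 at 0 h, 20.3, 13.2 and 22 at 6 h and 27.4, 36.1 and 23.4 at 24 h CPM. All treated units lay below all resting ones, with log2 fold changes of -2.67 ± 0.24 and -2.0 ± 0.23. Jun, its partner, fell at 6 h (-2.0 ± 0.26) and did not pass the test at 24 h (0.15 ± 0.23). Ier3, a survival gene, rose by 4.37 ± 0.44 and 3.91 ± 0.43, and Atf3, a factor that restrains Toll-like receptor responses, rose by 1.51 ± 0.24 and 2.56 ± 0.25.

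Complement genes that leucocytes make rose in part: 6 of 13 rose and 3 fell at 6 h (median log2 fold change 0.73, turning to -0.51 with total count scaling, with 5 and 3 without S37 and 4 and 6 with total counts), and 6 of 13 rose and 2 fell at 24 h (median log2 fold change 1.13, with 5 and 2 without S37 and 3 and 4 with total counts). C3, the central component, stood at 397, 30.6 and 262 at 0 h, 2315, 1384 and 2163 at 6 h and 788, 999.9 and 1306 at 24 h CPM. S37 was the lowest at rest, 13-fold under the highest, and all treated units lay above all resting ones. It rose by 3.38 ± 0.73 and 2.57 ± 0.73, the latter not passing without S37 (1.67), and Cfb, factor B, rose by 3.47 ± 0.54 and 3.40 ± 0.55. C5ar1, the receptor for the fragment C5a, fell (-1.51 ± 0.26 and -2.42 ± 0.26). Among late risers outside the lists, Ly6a stood at 368, 47 and 486 at 0 h, 1035, 208 and 1180.2 at 6 h and 3054, 3836 and 3508 at 24 h CPM. Its 6 h units overlapped rest and its 24 h units lay above, with a log2 fold change of 4.19 ± 0.82 at 24 h. Upp1, uridine phosphorylase, rose at both times (8.45 ± 0.39 and 7.82 ± 0.38), and Por, the electron donor of cytochrome P450 enzymes, fell at 6 h (-3.48 ± 0.25) and ended above rest (1.68 ± 0.23).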
